A study of Neolecta irregularis with 2 samples.

Results

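Isoform choice was examined at the expressed loci of *Neolecta irregularis* for which more than 1 transcript model is listed. A locus is the NEOLI number shared by its transcripts, and it was kept when at least 2 transcripts were listed and at least 200 estimated reads fell on the locus in each library. Of 5497 loci, 593 had several transcripts and 153 of these were kept, with 354 isoforms. The members were chosen by the total reads of a locus, whereas the split of those reads among isoforms and the coding lengths were not used.

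*N. irregularis* is an early-diverging ascomycete that forms yellow, club-shaped fruiting bodies. Whole-organism RNA of 2 independent specimens catalogued by a botanic garden, DBG-F-033461 and DBG-F-031510, was captured by its poly(A) tails and made into 1 stranded library each. Both specimens belong to the same group, without treatment, and no source used here gives their age. The reads were assigned to gene models of the reference strain DAH-1, which is neither of these specimens.

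An isoform is one of several messenger RNAs made from the same locus, usually by alternative splicing or by another start or end of transcription. In fungi the most common kind of alternative splicing is intron retention, in which an intron stays in the mature RNA. Isoforms of a locus have most of their sequence in common, so a short read often fits several of them and is divided among them by estimation. The share of an isoform is its estimated reads as a percentage of those of the locus, and the leading isoform is the one with the highest mean share over both specimens.

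Estimated reads assigned to the listed models came to 1556674 in DBG-F-033461 and 1511860 in DBG-F-031510, of which the 153 loci took 8.70% and 8.67%. These are a small part of the clean reads that the paper reports for each specimen, so every share rests on that part. A locus had 214 to 11295 reads in DBG-F-033461 (median 495) and 208 to 12585 in DBG-F-031510 (median 521). Just inside the limit of 200 reads were NEOLI_002898, with 219 and 208 reads in DBG-F-033461 and DBG-F-031510 and leading shares of 80.5% and 89.95%, and NEOLI_004727, with 214 and 248 reads and 100% in both. Just outside were NEOLI_003998, with 197 and 239 reads, and NEOLI_001308, with 196 and 296 reads, both at 100% in both specimens. Estimated reads of each locus summed to a whole number within 0.01 at 153 of the 153 loci in both specimens, while 111 of the 354 isoforms in DBG-F-033461 and 115 in DBG-F-031510 had reads with decimals. The division of reads thus took place within loci. Intervals on shares are exact Clopper-Pearson intervals at the 95% level of the rounded reads. They cover counting error only, neither the division of reads among isoforms nor the variation between fungi. With 1 library per specimen and 1 group, no test was made.

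At most of these loci a single isoform took nearly all reads. The same isoform held at least 95% of the reads in both specimens at 104 of 153 loci (68.0%), against 78.7% of all 356 multi-transcript loci with at least 20 reads in each specimen, a background that includes the members. At 89 loci (58.2%, background 73.0%) each other isoform was listed at 0 reads in both specimens. Among the 203 loci with at least 20 reads in each specimen but fewer than 200 in 1 or both, these shares were 86.7% and 84.2%. The depths differ, since a count of 0 allows up to 15% of a locus with 20 reads and 1.5% of a locus with 200 reads, at 3 reads each, so these shares give no order of exclusive use between stronger and weaker loci. Reads with decimals occurred at 62 of the 153 loci (40.5%) and at 15.8% of the 203 weaker loci. Each of the 91 loci without decimals had a leading share of at least 95%, and of the 62 loci with decimals 13 reached it. The 91 loci include the 89 with every other isoform at 0 reads, so this relation largely follows from the definitions.

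The median share of the leading isoform was 100% in both specimens, and its lower quartile was 92.0% in DBG-F-033461 and 92.9% in DBG-F-031510. By reads, the leading isoforms took 88.1% and 87.5% of the reads of the 153 loci. The highest share that a count of 0 allows, at 3 reads, ran from 0.0266% to 1.40% of a locus in DBG-F-033461 and from 0.0238% to 1.44% in DBG-F-031510. It assumes that reads of the isoform would have been assigned to it, and that every read of the locus could tell its isoforms apart. Reads of sequence common to several isoforms cannot, so the true limit can be higher.

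**Figure D1:**
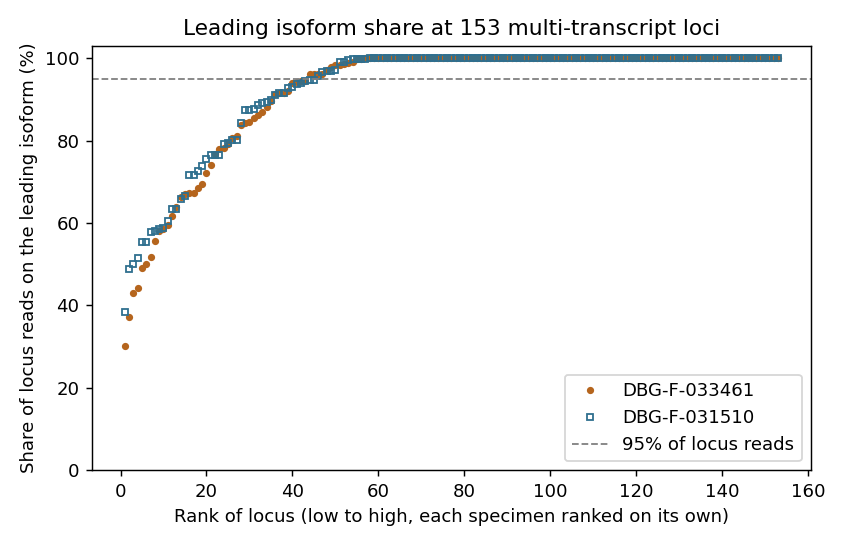
Share of locus reads on the leading isoform (y axis, %) at the 153 loci, ranked from low to high within each specimen (x axis); filled circles are DBG-F-033461, open squares DBG-F-031510, and the dashed line marks 95%. The curves of the specimens nearly coincide, and the leading isoform reached 95% at 110 loci in DBG-F-033461 and 108 in DBG-F-031510.

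Among the loci with exclusive use was NEOLI_000692, the fourth by reads, with 4030 reads in DBG-F-033461 and 3458 in DBG-F-031510, all on the isoform T0.1 of 1575 nt. Its other isoform, T0 of 1617 nt, had 0 reads in both, where 3 reads would be 0.0744% and 0.0868% of the locus. The limit on T0 is higher if few reads cover the part that sets it apart. NEOLI_001724, annotated as a Na+/K+ transporter, a membrane protein that moves sodium and potassium ions, was the only member named in the annotation rows used here. Its isoform T0 (2346 nt) had 372 and 311 reads, at 81.9 TPM and 68.0 TPM, whereas T0.1 (2385 nt) and T0.2 (2427 nt) had 0 reads in both specimens. NEOLI_000061, with 4 isoforms, had 699 reads in DBG-F-033461 and 1160 in DBG-F-031510, all on T0, the shortest at 2436 nt. At NEOLI_002960, with 5 isoforms of 615 to 825 nt, 704 and 672 reads fell on T0.4 of 723 nt alone. At NEOLI_004040 the longest of 4 isoforms, T0.1 of 2079 nt, held all 318 and 421 reads. The last 3 loci were chosen for their number of isoforms after their values were seen.

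Several isoforms were used together at a minority of loci. An isoform was called used with at least 10% of the locus reads in both specimens and unused with under 1% in both, which gave 186 used, 140 unused and 28 intermediate isoforms. At 122 loci 1 isoform was used, at 30 loci 2, and at 1 locus 4. Of the isoforms, 132 had 0 reads in both specimens and 15 had reads in only 1 of them, 6 of these in DBG-F-033461 and 9 in DBG-F-031510, with a median of 23.3 reads. Counts of this kind are not given here for the background loci, so they are not read as particular to the members.

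The locus with the most reads, NEOLI_002434, was of this kind. Its isoform T0 (2112 nt) had 7212 reads in DBG-F-033461 and 6969 in DBG-F-031510, and T0.1 (1947 nt) had 4083 and 5616. The share of T0 was 63.8% (95% interval 63.0% to 64.7%) in DBG-F-033461 and 55.4% (54.5% to 56.3%) in DBG-F-031510, so T0 led in both but by less in DBG-F-031510. NEOLI_002982 had 7314 and 5306 reads, of which T0.1 (2778 nt) held 91.6% and 89.4% and the longer T0 (3894 nt) the rest. NEOLI_000572 had 3460 and 3216 reads, of which T0.1 (1368 nt) held 84.3% and 87.7% and the longer T0 (1614 nt) the rest.

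At NEOLI_003002 the leading isoform depended on the scale. The longer isoform T0.1 (600 nt) held 59.5% of 4963 reads in DBG-F-033461 and 57.9% of 4686 reads in DBG-F-031510. On the TPM scale, which divides reads by effective length, the short T0 (252 nt) was the higher one, at 7259 TPM and 7062 TPM, against 3016 TPM and 2747 TPM for T0.1. The lead changed in this way at 3 of the 153 loci, the others being NEOLI_002705 and NEOLI_004289. Both specimens had the same order of isoforms on each scale at NEOLI_003002.

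NEOLI_001692 had the most isoforms, 8, and the lowest leading share. The isoforms with reads, here in order of length, carried its 3381 reads in DBG-F-033461 and 2862 reads in DBG-F-031510. T0.5 (1188 nt) held 30.3% (95% interval 28.7% to 31.8%) and 38.3% (36.5% to 40.1%). T0.3 (1290 nt) held 31.3% and 28.1%, T0.2 (1509 nt) 18.6% and 18.9%, and T0.1 (1611 nt) 19.8% and 14.7%. The other isoforms, T0.7, T0.6, T0.4 and T0, had 0 reads in both specimens, which allows up to 0.0887% and 0.105% of the locus each. Their lengths were 1224, 1326, 1545 and 1647 nt, so each was 36 nt longer than an isoform with reads.

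NEOLI_002705 showed the same arrangement with 4 isoforms. T0 (870 nt) had 600 reads in DBG-F-033461 and 540 in DBG-F-031510, and T0.1 (678 nt) had 559 and 508. The isoforms of 909 and 717 nt, each 39 nt longer than one of these, had 0 reads in both. The share of T0 was 51.8% and 51.5%, a difference of 0.29 points (95% interval -3.88 to 4.46), so the specimens did not differ beyond counting error. NEOLI_002835 was as close, with T0.2 (2376 nt) at 79.2% of 471 reads and 79.5% of 477 reads, T0.1 (2568 nt) at 20.8% and 20.5%, and the longest isoform, T0 of 3360 nt, at 0 reads.

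NEOLI_004686 cannot be resolved by these data. Its isoforms T1 and T0 have the same length, 1635 nt, and the same estimated reads, 146.5 each in DBG-F-033461 and 133 each in DBG-F-031510. The sequences were not compared here. This locus counts among those below 95%, and its leading isoform is a tie.

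The specimens had mostly the same choice of isoform. The leading isoform was the same at 147 of 153 loci (96.1%, also 96.1% of the background loci), a count that includes the tie at NEOLI_004686. Every other isoform had 0 reads in both specimens at 89 of the 153 loci and at 260 of the 356 background loci. At these the lead is the same by definition, though the zeros are themselves agreement between the libraries. The equal percentages therefore do not compare the remaining loci. Among the 153 loci, the lead differed at 6 of the other 64. In the background the lead was the same at 342 of 356 loci, a count that includes those 260. At the 64 loci where another isoform had estimated reads above 0 in at least 1 specimen, the leading share differed by a median of 4.94 points, and by under 5 points at 34 loci. Over these 64 loci, the leading shares of the specimens had a Pearson's r of 0.805 and a Spearman's rho of 0.767, which describe loci of the same pair of libraries.

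Differences were nevertheless larger than counting error at many of these loci. The interval of the difference left out 0 at 44 of the 64 loci, with the share higher in DBG-F-033461 at 18 and in DBG-F-031510 at 26. No such count is given here for the background loci, so it is not read as particular to the members. The squared difference was a median of 9.12 times its binomial variance, which includes no error of dividing reads among isoforms. A difference of at least 10 points was found at 11 of 153 loci (7.19%), against 27 of 356 background loci (7.58%). Of the 11 loci, 4 had the higher share in DBG-F-033461 and 7 in DBG-F-031510. Loci with every other isoform at 0 reads in both specimens show no difference by definition. These were 58.2% of the 153 loci but 73.0% of the background. The background also includes loci of fewer reads, where counting error is larger. The close percentages therefore do not compare the loci where a difference was possible.

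**Figure D2:**
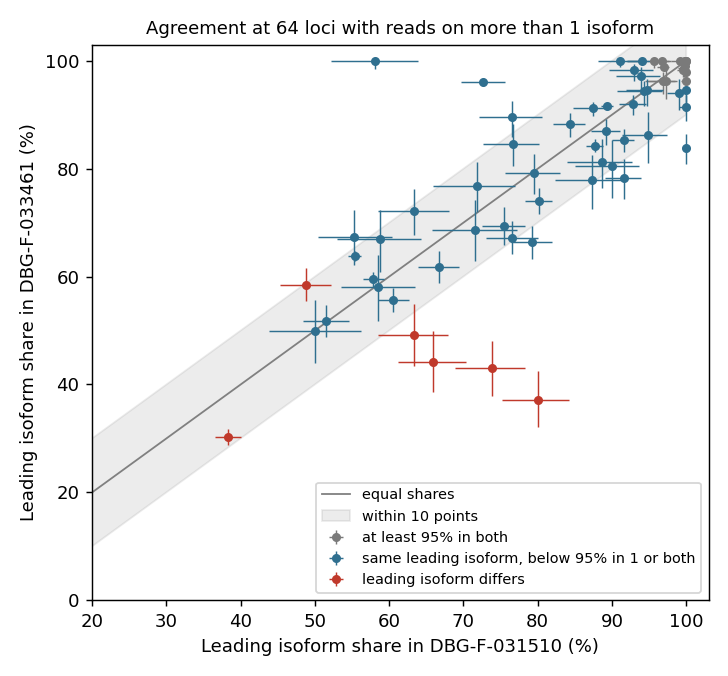
Leading isoform share in DBG-F-033461 (y axis, %) against DBG-F-031510 (x axis, %) at the 64 loci with reads on more than 1 isoform; bars are exact 95% intervals of counting error, the line marks equal shares and the band 10 points on either side. Of the 64 loci 53 lie within the band, and the 6 loci with another leading isoform in each specimen are in red.

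The largest difference was at NEOLI_002577, whose isoforms changed places. T0.1 (2094 nt) had 216 reads in DBG-F-033461 and 62.7 in DBG-F-031510, whereas T0 (2436 nt) had 128 and 252. The share of T0 was 37.1% (95% interval 32.1% to 42.6%) in DBG-F-033461 and 80.1% (75.2% to 84.3%) in DBG-F-031510, a difference of -43.0 points (-49.4 to -35.95). The locus as a whole had 344 and 315 reads, so its total changed little.

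At NEOLI_004473 a second isoform appeared in 1 specimen only. T1 (2472 nt) had 239 reads in DBG-F-033461 and 165 in DBG-F-031510, and T0 (2352 nt) had 0 and 119. The share of T1 was 100% and 58.1%, a difference of 41.9 points (95% interval 36.1 to 47.7). The count of 0 allows a share of T0 of up to 1.26% in DBG-F-033461.

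At NEOLI_000951, T0.2 (2199 nt) held 43.0% of 382 reads in DBG-F-033461 and 73.9% of 355 reads in DBG-F-031510, a difference of -30.9 points (95% interval -37.4 to -24.0). T0.1 (2388 nt) held the rest, and T0, only 3 nt longer than T0.1, had 0 reads. NEOLI_002592 differed in its total as well, with 3050 reads in DBG-F-033461 and 911 in DBG-F-031510. Its T0.2 (1326 nt) held 96.1% and 72.6%, a difference of 23.5 points (20.6 to 26.5). Its T0.1 (1146 nt) had the higher level in DBG-F-031510, with 56.6 TPM in DBG-F-033461 against 118 TPM in DBG-F-031510, while T0.2 was at 1191 TPM and 267 TPM. The isoforms of this locus thus differed between specimens in opposite directions.

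The other changes of the leading isoform were smaller. T0 of NEOLI_001074 (2790 nt) held 44.3% of 314 reads in DBG-F-033461 and 65.95% of 437 reads in DBG-F-031510, a difference of -21.7 points (95% interval -28.6 to -14.5). T0 of NEOLI_000135 (3243 nt) held 49.2% and 63.4%, a difference of -14.2 points (-21.3 to -6.89), and in DBG-F-033461 its interval (43.5% to 54.9%) includes an even split. T0 of NEOLI_004289 (768 nt) held 58.5% and 48.8%, a difference of 9.72 points (5.13 to 14.3), and here the interval in DBG-F-031510 (45.3% to 52.2%) includes an even split. At NEOLI_001692, T0.3 led in DBG-F-033461 and T0.5 in DBG-F-031510, with intervals that overlap in DBG-F-033461. This change was not seen on the TPM scale, where T0.5 was the higher one in both specimens, with 469 TPM against 443 TPM for T0.3 in DBG-F-033461 and 499 TPM against 334 TPM in DBG-F-031510. By share of TPM, the leading isoform was the same at 148 loci.

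**Figure D3:**
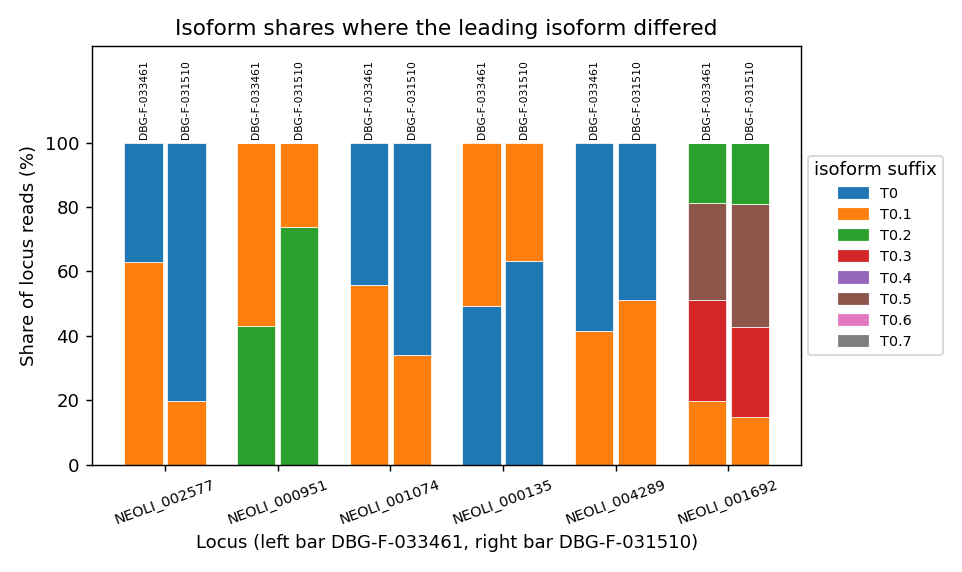
Share of locus reads (y axis, %) of each isoform at the 6 loci where the leading isoform differed (x axis), with DBG-F-033461 as the left bar and DBG-F-031510 as the right bar; colours are isoform suffixes. T0 of NEOLI_002577 takes 37.1% and 80.1%, the widest change, while the shares at NEOLI_001692 change by up to 8.03 points.

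The total level of a locus was at least 2-fold different between the specimens at 6 of the 153 loci (3.92%), against 3.82% of all 1282 loci with at least 200 reads in each specimen. Of these 6, NEOLI_002592 and NEOLI_003313 had reads on several isoforms. NEOLI_003313 reached 657 TPM in DBG-F-033461 against 267 TPM in DBG-F-031510, with the model of 1740 nt at 91.2% and 87.5% of the reads. This model carries a name that joins NEOLI_003313 and NEOLI_003314, so it spans a neighbouring locus as well. In whole fruiting bodies, fewer cells of a type and less RNA per cell cannot be told apart.

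The longest isoform led at a minority of loci. The leading isoform was the longest listed at 54 of 153 loci (35.3%, background 31.7%), tied for longest at 1, and shorter than another at 98. It was the shortest at 86 loci (56.2%, background 60.4%), a count that includes the tie. The 118 loci with 2 isoforms differed in length by a median of 164 nt (quartiles 45.8 and 319), and the shorter isoform led at 66 of the 117 with unequal lengths (56.4%, background 62.3%). Of the 74 of these loci where the other isoform had 0 reads, the shorter held all reads at 43 and the longer at 31.

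**Figure D4:**
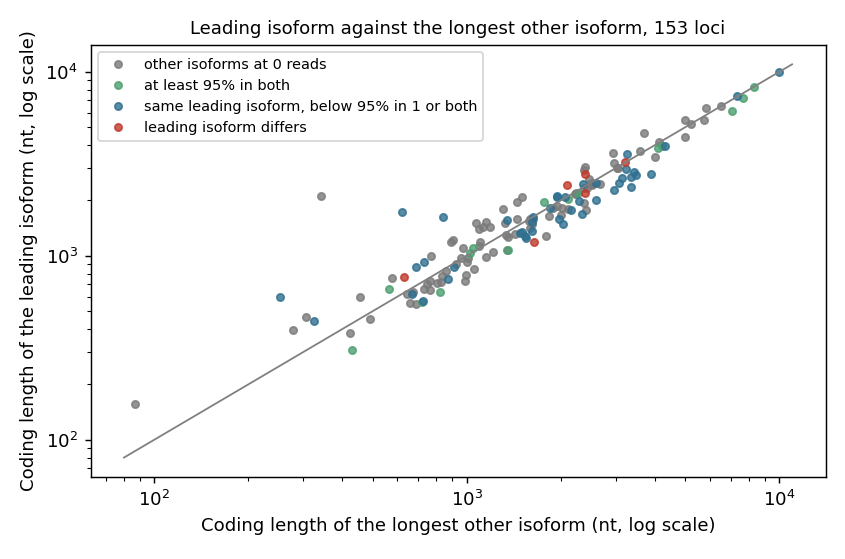
Coding length of the leading isoform (y axis, nt, log scale) against that of the longest other isoform (x axis, nt, log scale) at the 153 loci, coloured by how the reads were divided; the line marks equal length. Of the points 98 lie below the line, where another isoform is longer, and the farthest above it is NEOLI_004177 with 2115 and 342 nt.

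At the 112 loci with both kinds of isoform, the longest used isoform was shorter than the longest unused one at 73 and longer at 39. The median log2 ratio of used over unused was -0.035 (quartiles -0.16 and 0.13), which is 97.6% of the length, and at 53 loci the lengths were within 1.1-fold. The mean log2 ratio was 0.028, of the opposite sign, and over all loci the median length was 1635 nt for used and 1445 nt for unused isoforms, so a general shortness of used isoforms cannot be read from these values. Among weaker loci the used isoform was shorter at 134 of 181, with a median log2 ratio of -0.070.

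The extremes lay on both sides. At NEOLI_004177, T1 of 2115 nt held all 305 and 366 reads, while T0 of 342 nt had 0 in both, a log2 length ratio of 2.63. NEOLI_003313 (1740 against 621 nt) and NEOLI_003002 (600 against 252 nt) followed, with log2 ratios of 1.49 and 1.25. In the other direction were NEOLI_002835 with -0.50, and NEOLI_002568, whose 406 and 573 reads all fell on T0 of 1278 nt while isoforms of 1758 and 1794 nt had 0. At NEOLI_001797, T0.1 of 306 nt held 100% and 99.1% of the reads, and T0 of 429 nt had 0 and 4.34 reads.

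The shorter isoform led most often in the class of closest lengths, mainly at differences of 36 to 45 nt. Where 2 isoforms differed by under 60 nt, the shorter led at 25 of 31 loci. Of these 31 loci, 21 differed by 36 to 45 nt, and the shorter led at 20 of those. From 60 to under 300 nt it led at 28 of 53 and from 300 nt at 13 of 33. The 203 weaker loci had the shorter in the lead at 36 of 42, 52 of 79 and 16 of 35 loci in the same classes. These classes and the range of 36 to 45 nt were chosen after the lengths were seen, and loci are not replicates.

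**Figure D5:**
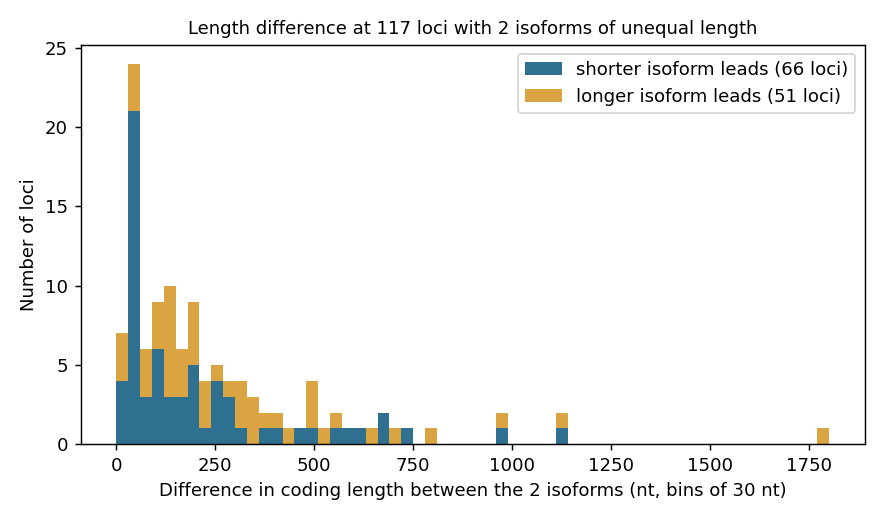
Number of loci (y axis) by the difference in coding length of their 2 isoforms (x axis, nt, in bins of 30 nt) for the 117 loci with unequal lengths; blue is a leading shorter isoform (66 loci) and yellow a leading longer one (51 loci). The tallest bar lies between 30 and 60 nt and is mostly blue.

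The most common difference was 39 nt, at 9 loci, followed by 36 nt at 6 loci, and at each of these 15 loci the shorter isoform led. In a window of 36 to 45 nt (12 to 15 codons), drawn around these differences after they were seen and including the 15 loci, the shorter isoform led at 20 of 21 loci, with at least 90% of the reads in both specimens at each of the 20, and the other isoform had 0 reads in both specimens at 17. The exception was NEOLI_000135, where T0 is 42 nt longer than T0.1. Under 60 nt the longer isoform led at 6 loci and the shorter at 25, and of the 6 only NEOLI_000135 lies in the window. Just outside it, the longer isoform held all 1022 and 807 reads at NEOLI_001581 (1125 against 1092 nt). At NEOLI_001864 (1098 against 1050 nt) the longer held 99.9% and 100%. NEOLI_001596 (T0.1, 624 nt, 94.5% and 94.7%) and NEOLI_002717 (T0, 9957 nt, 92.0% and 92.9%) kept some reads on an isoform 45 nt longer. At weaker loci with differences of 36 to 45 nt, the shorter isoform led at 22 of 22.

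At loci with at least 3 isoforms, each of the 62 unused isoforms was set beside the used isoform of its locus nearest in length. It was longer in 45 cases and shorter in 17. It was longer by 36 to 45 nt in 12 cases, among them the unused isoforms of NEOLI_001692 and NEOLI_002705 and T0.1 of NEOLI_001724, and shorter by that amount in 1, the isoform T0.2 of NEOLI_002960. Intermediate isoforms were left out of this count, and unused isoforms of the same locus, as at NEOLI_001692 and NEOLI_002705, were counted as separate cases. The comparison is not given here for the background loci, so its counts are not read as particular to the members.

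The leading isoform carried no constant suffix. Both T0 and T0.1 were listed at 140 loci, where T0.1 led at 66, T0 at 60 and another isoform at the rest. T0 was the longer of the pair at 106 of these loci and the shorter at 34. The isoform T0.2 was listed at 36 loci and led at 12.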

How the data were processed

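RNA of the 2 specimens (1 group, 1 poly(A)-captured library each) was sequenced as paired-end reads. Estimated counts of reads per transcript, not normalized, and TPM, which divide reads by effective length and have equal sums in both libraries, were used as deposited by the authors. Per the labels, reads were processed with fastp 0.20.0 and FastQC 0.11.9. The paper's methods also name hisat2 and featureCounts, and no source used here names the tool behind the estimated counts. The deposited lengths are coding lengths, without untranslated regions.

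Transcripts were grouped by NEOLI number, and loci with at least 2 transcripts and 200 reads in each specimen were kept. A transcript whose name joins several loci was placed at the first. Shares used the unrounded estimated counts, and intervals of shares used rounded reads (Clopper-Pearson). Intervals of differences, DBG-F-033461 minus DBG-F-031510, are Newcombe intervals of the unrounded values. Both are at the 95% level. A count of 0 was taken to allow 3 reads. No test was made, since there is 1 library per specimen, 1 group, and loci are not replicates. The steps for shares, leading isoforms and intervals of shares were tested on simulated counts. These held no reads divided among isoforms by estimation, and the length results were not simulated.

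The loci named are the 5 with the most reads, the 5 with the lowest leading share, those whose leading isoform differs, the 5 largest share differences, the one with the most isoforms, the 3 extremes of length ratio in each direction, annotated members, and the 2 loci on each side of the read limit. Others named were chosen after their values were seen. The members and lists were chosen with earlier results of these data known. Names came from the first rows of the supplementary annotation, and no sequence was used. Alternatives were other read minimums, shares of TPM, other limits of share, difference and use, omission of joined names, and each specimen alone. Python 3.11.15, numpy 2.4.6, pandas 2.3.3, scipy 1.17.1 and matplotlib 3.10.9 were used.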

Additional observations from a re-analysis of the deposited data

How the results depend on the processing

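Of 57 alternative values, 5 were added after seeing the data. For 41, counts stayed within 1.5 times or medians within the spread of the specimens. A change of direction was looked for only in the median log2 length ratio, and none of its alternatives had one. The mean log2 ratio of 0.028, of the opposite sign, was not among the alternatives. With at least 100 reads per locus, 236 loci were kept, of which 178 had an isoform at 95% and 226 the same leading isoform, and with at least 500 reads the counts were 68, 47 and 66. With 500 reads, 26 loci had the longest isoform in the lead, 84 isoforms were used and 3 loci differed by 10 points. These counts follow the number of loci kept. The loci that differed numbered 5 at 20 points and 44 by an interval that leaves out 0. The median leading share was 86.1% without the loci whose other isoforms had 0 reads, and of the 64 loci then left the longest isoform led at 21. The median log2 length ratio of used over unused isoforms was -0.050 with 100 reads, -0.026 with mean lengths, and -0.049 to -0.038 with the loci chosen in each specimen alone. The spread these medians were held to is the SD of 0.0065 between the specimens over the same 153 loci. With shares of TPM, 105 loci reached 95%. With each specimen alone, 165 to 176 loci were kept, 122 to 128 reached 95%, and 55 to 57 had the longest isoform in the lead. Depth limits the share that a count of 0 allows, up to 1.44% at the weakest locus if every read could tell isoforms apart. The division of reads among isoforms adds an error that the deposited values do not give. No paired analysis was possible because the specimens form 1 group.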
